A study of Mus musculus with 12 samples.

Results

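The tumour suppressor p53 (Trp53) and 9 genes known as its transcriptional targets (Mdm2, Cdkn1a, Bax, Bbc3, Ccng1, Eda2r, Phlda3, Zmat3 and Sesn2) were examined by gene symbol, which selected 10 of the 24421 genes measured. Levels came from polyA RNA sequencing of 12 mouse tissue libraries in 4 groups of 3. Non-tumour cortex was of wild-type genotype. The other 9 libraries were ependymomas, brain tumours that all carried the ZFTA-RELA fusion, an oncogene that joins a zinc finger protein to the NF-kB subunit RelA. The control tumours had the fusion alone, the ETV5 tumours also overexpressed human ETV5, an ETS transcription factor, and the NPY tumours also overexpressed human NPY, a neuropeptide. Age, strain, sex, the promoter driving each transgene and the way the fusion was delivered are not given in the labels used here. Nor do they say whether replicates were separate animals, so the p-values here reflect only how far these libraries vary, which may be technical.

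In textbook accounts, p53 is a transcription factor that is held at low levels by Mdm2, a ubiquitin ligase that p53 itself induces, and that is stabilised by DNA damage or oncogene signalling. Once stabilised it binds response elements built from a pair of half-sites and raises transcription of genes that stop the cell cycle, start apoptosis or dampen growth signalling. Since p53 is controlled largely at the protein level, mRNA levels of Trp53 and of its targets are separate measurements, and neither measures p53 activity directly.

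Promoter windows of 9 of the 10 genes were found in the RefSeq table (build GRCm38.p6). Each window ran from 250 bases before to 50 after a gene start, and both strands were searched for the p53 half-site. It was present for 5 of the 9 genes, against 9.55% of all 27025 genes with a window. The stretches upstream of the starts are shown because they place the half-site letters, in capitals, in the genes described below. Each is written 5′ to 3′ on the strand of its gene. A match describes these letters only and is not a binding site or a cause, and the lack of a match in a window says nothing of the factor.
Trp53 (chr11:69580244-69580333, plus strand): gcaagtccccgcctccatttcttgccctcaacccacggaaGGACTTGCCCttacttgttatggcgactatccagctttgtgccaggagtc
Mdm2 (chr10:117710895-117710984, minus strand): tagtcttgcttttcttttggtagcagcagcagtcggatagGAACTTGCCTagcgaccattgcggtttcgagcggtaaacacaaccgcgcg
Cdkn1a (chr17:29090866-29090977, plus strand): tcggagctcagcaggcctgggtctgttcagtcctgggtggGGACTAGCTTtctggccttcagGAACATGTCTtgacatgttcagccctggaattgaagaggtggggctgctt
Bax (chr7:45467050-45467139, minus strand): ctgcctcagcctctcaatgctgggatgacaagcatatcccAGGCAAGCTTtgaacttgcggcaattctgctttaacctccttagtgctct
Ccng1 (chr11:40755422-40755511, minus strand): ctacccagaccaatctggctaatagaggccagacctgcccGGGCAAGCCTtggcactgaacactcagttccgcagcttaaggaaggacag

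Cdkn1a was the one gene of the 5 with 2 half-sites in a window, 73 and 51 bases before the start used there. Its other window (29093519 to 29093818), at a start further along the gene, held no match. The half-sites of Mdm2, Bax and Ccng1 lay 186, 201 and 185 bases before the start, and that of Trp53 lay 75 bases before it. Each of the 5 stretches lies at or upstream of a RefSeq start of its own gene.

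Recovered depth was 5962376 to 11291057 reads per library, and levels are given as CPM, reads scaled to that total. Tissue markers followed the labels in part. Summed cortical excitatory neuron markers ran from 5872 to 7319 CPM in cortex and from 77.6 to 846 CPM in the tumours, so that the tumours' median marker level was 0.54 to 14.9% of that in cortex. It was 6.55 to 14.9% in control tumours, 0.68, 9.15 and 2.68% in the ETV5 tumours and 0.54 to 1.29% in NPY tumours. Summed oligodendrocyte markers (6 genes) were 13506 to 16994 CPM in cortex and 260 to 3498 CPM in tumours. Summed markers of microglia and macrophages (10 genes) were 541 to 628 CPM in cortex and 1604 to 6049 CPM in tumours, and those of pericytes and fibroblasts (6 genes) were 109 to 148 and 929 to 3208 CPM. Ependymoma markers summed to 324 to 365 CPM in cortex and 6686 to 9606 CPM in tumours. Igf2 was the largest part in every tumour (3525 to 6444 CPM). Foxj1 of that list was at 9.22 to 11.4 CPM in cortex. It was at 1.05 to 8.22 CPM in ETV5 tumours and 0.37 to 4.58 CPM in NPY tumours. In control tumours Foxj1 ran from below to above cortex. Sox2 did so in NPY tumours (20.1 to 34.7 CPM) and was higher in the other tumours. The remaining listed markers were higher in every tumour than in any cortex library. The overexpressed genes are human, so reads on the mouse genes Etv5 and Npy do not test the labels. The differences from cortex below stand beside these shifts in cell makeup, whose part in them was not tested. In bulk tissue, fewer cells of a type and less RNA per cell cannot be told apart.

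Differences were tested with limma on the log2 of size-factor scaled values plus 1, and a gene was called at an adjusted p under 0.05 over all genes tested. Each difference is given on that log2 scale with its standard error (SE). Scaling to the total, as in CPM, put the median difference of all genes from cortex 0.14 to 0.18 higher than the size factors did, so CPM shows tumours slightly higher against cortex than the tested values. The 3 comparisons with cortex share the cortex libraries.

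Against cortex, control tumours had higher Trp53, Bax, Bbc3 and Eda2r and lower Zmat3, which is 4 higher and 1 lower of 10 genes. Of all 14621 genes tested, 72.0% were called in this comparison, 35.7% higher and 36.2% lower, so these 5 calls are a smaller share than that over all genes. In ETV5 tumours, Trp53 and Bbc3 were higher and Ccng1 and Zmat3 were lower, 4 of the 9 genes that passed the filter, where 63.8% of 14493 genes were called (31.8% higher, 32.0% lower). In NPY tumours, Trp53, Bbc3 and Eda2r were higher and Zmat3 was lower, 4 of 10 genes, where 70.9% of 14613 genes were called (35.6% higher, 35.4% lower). The tumour and cortex ranges did not overlap for 6, 6 (with the untested Eda2r) and 4 of the 10 genes in the control, ETV5 and NPY comparisons on the size-factor scale, while 77.2%, 72.9% and 76.8% of all genes had no overlap. The median difference of the 10 genes was 0.42 in control tumours, 0.33 over 9 genes in ETV5 tumours and 0.39 in NPY tumours, beside -0.0032, 0.012 and 0.0069 over all genes. Mdm2, Cdkn1a, Phlda3 and Sesn2 were called in none of the 3 comparisons by limma.

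**Figure D1:**
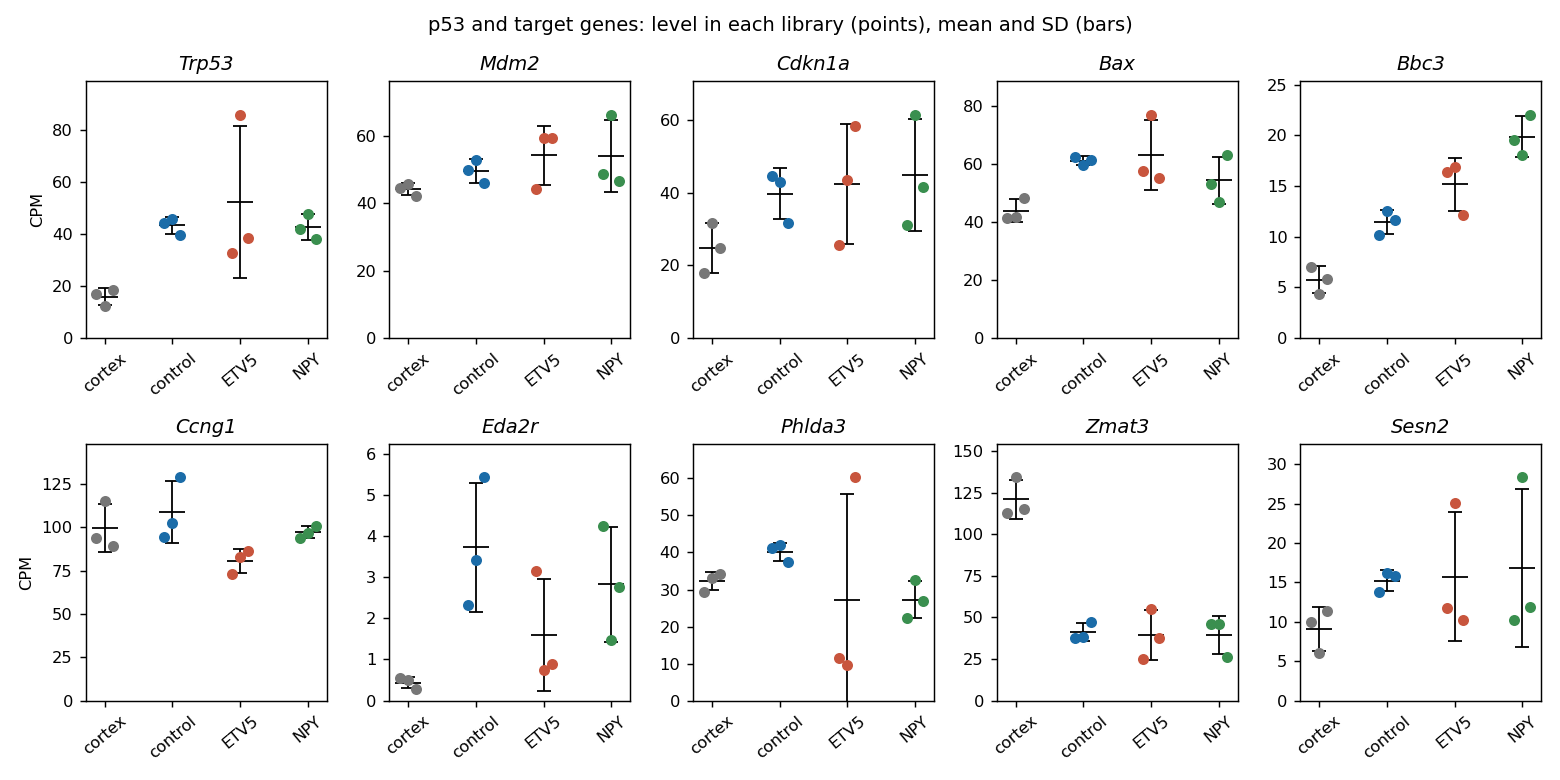
CPM of each of the 10 genes in every library, with 1 panel per gene and the 4 groups along the horizontal axis. Points are libraries and bars are the mean and SD of 3 libraries, with the axis starting at 0. Zmat3 is lower in all 9 tumour libraries than in any cortex library, Trp53 and Bbc3 are higher in all 9, and the ETV5 libraries are far apart for Phlda3, where the SD bar reaches below the axis.

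Trp53 itself (chromosome 11, 69580359 to 69591873, plus strand, mm10) was at 16.9, 12.4 and 18.4 CPM in the 3 cortex libraries. The control tumours were at 44.4, 45.9 and 39.6 CPM, the ETV5 tumours at 32.5, 85.9 and 38.3 and the NPY tumours at 42.0, 47.8 and 37.9. Every tumour library was above every cortex library, and ETV5 replicate 2 stood apart at the top while the remaining 8 tumours lay within 32.5 to 47.8 CPM. Control tumours exceeded cortex 2.43-fold (log2 difference 1.28, SE 0.17, limma adjusted p = 0.000197). In NPY tumours the excess was also 2.43-fold (1.28, SE 0.19, adjusted p = 0.000723). The ETV5 difference of 1.41 (SE 0.38, adjusted p = 0.0163) rested in part on single libraries. Without cortex replicate 2 it was 1.26 with limma adjusted p = 0.060. With each library left out in turn it ran from 0.99 to 1.70, lowest without ETV5 replicate 2. A pseudogene, Trp53-ps, is annotated and was not analysed here, so shared reads cannot be told apart.

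Mdm2 (chromosome 10, 117688875 to 117710758, minus strand), the ligase that marks p53 for degradation, was not called in the comparisons in which Trp53 rose. The cortex libraries stood at 44.6, 45.8 and 42.2 CPM, the control tumours at 49.8, 52.9 and 46.0, the ETV5 tumours at 44.1, 59.3 and 59.3 and the NPY tumours at 48.8, 66.3 and 46.7. In CPM, 8 of 9 tumours lay above the highest cortex library, by small margins in control tumours, while on the size-factor scale the ranges overlapped in all 3 comparisons. The log2 difference from cortex was -0.0092 in control tumours, with a 95% interval of -0.30 to 0.28 (limma adjusted p = 0.951). For ETV5 tumours it was 0.099 (-0.32 to 0.52), and for NPY tumours 0.13 (-0.30 to 0.55). The sign in control tumours turned positive with edgeR, DESeq2, limma-voom, TMM scaling (0.044) and scaling to the total (0.16), and none of these called it.

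Cdkn1a (chromosome 17, 29090976 to 29100727, plus strand) encodes p21, the cyclin-dependent kinase inhibitor through which p53 halts the cell cycle. The cortex libraries stood at 17.9, 31.7 and 24.6 CPM, the control tumours at 44.5, 42.9 and 31.8, the ETV5 tumours at 25.5, 43.3 and 58.3 and the NPY tumours at 31.2, 61.5 and 41.5. The tumour libraries were mostly higher, 7 of 9 above every cortex library, with wide spread within the ETV5 and NPY groups. The log2 differences from cortex of 0.53 (SE 0.25, adjusted p = 0.083), 0.55 (SE 0.38, adjusted p = 0.240) and 0.69 (SE 0.32, adjusted p = 0.091) in control, ETV5 and NPY tumours did not pass the limma test. With scaling to the total, the control and NPY differences were 0.68 and 0.81 and passed. Single libraries also decided the call: the control difference passed without cortex replicate 2 (0.75) or control replicate 3 (0.71), that of ETV5 tumours without ETV5 replicate 1 (0.89) and that of NPY tumours without NPY replicate 1 (0.95). The counting's use of strand is not given in the sources used here, and an annotated gene on the opposite strand shares 273 exon bases with Cdkn1a.

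Ccng1 (chromosome 11, 40748552 to 40755311, minus strand) encodes cyclin G1, which recruits a phosphatase to Mdm2. Cortex libraries were at 94.0, 115 and 89.2 CPM, control tumours at 94.6, 103 and 129, ETV5 tumours at 72.8, 82.8 and 86.4 and NPY tumours at 94.0, 96.9 and 101. The 3 ETV5 libraries were the lowest of the 12. The NPY tumours lay within the cortex range, and the control tumours ran from within it to above it. The ETV5 difference from cortex was -0.48 (SE 0.17, adjusted p = 0.0397). It was lost without any 1 of cortex replicates 1, 2 and 3 and ETV5 replicates 1 and 2, with values from -0.56 to -0.35, and with scaling to the total (-0.29). The difference was -0.049 (SE 0.15) in control tumours, a sign that turned with TMM scaling (0.0051) and scaling to the total (0.12), and -0.17 (SE 0.14) in NPY tumours.

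Of the genes that act in cell death, Bax (chromosome 7, 45461697 to 45466898, minus strand) encodes an effector that opens the outer mitochondrial membrane. The cortex libraries stood at 41.4, 41.8 and 48.4 CPM, the control tumours at 62.5, 59.6 and 61.4, the ETV5 tumours at 57.6, 77.1 and 55.1 and the NPY tumours at 53.2, 46.9 and 63.1. Control tumours were tightly grouped above cortex, with a mean of 61.2 ± 1.48 CPM against 43.9 ± 3.98 (SD, n = 3 each). The difference was 1.24-fold (log2 0.31, SE 0.11, adjusted p = 0.0376), and it missed the threshold without any 1 of cortex replicates 1 and 2 and control replicates 1 and 2 (0.26 to 0.30), and with no filter on low values (adjusted p = 0.055). It was 0.33 (SE 0.17, adjusted p = 0.124) in ETV5 tumours, called at 0.51 with scaling to the total, and 0.16 (SE 0.14, adjusted p = 0.354) in NPY tumours. Another annotated gene on the same strand shares 192 exon bases with Bax.

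Bbc3 (chromosome 7, 16308393 to 16318205, plus strand) encodes PUMA, a BH3-only protein that releases Bax and Bak1 from their inhibitors. Its levels were 6.99, 4.36 and 5.85 CPM in cortex and 10.2, 12.5 and 11.6 CPM in control tumours. They were 16.4, 16.9 and 12.1 CPM in ETV5 tumours and 19.6, 18.0 and 22.0 CPM in NPY tumours. All 9 tumours were above cortex, and the 3 NPY libraries were the highest of the 12. The difference from cortex was 1.78-fold in control tumours (log2 0.83, SE 0.24, adjusted p = 0.0124), 2.32-fold in ETV5 tumours (1.21, SE 0.26, adjusted p = 0.00571) and 3.14-fold in NPY tumours (1.65, SE 0.22, adjusted p = 0.000399).

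Eda2r (X chromosome, 97333840 to 97377216, minus strand) encodes a receptor of the TNF receptor family that binds ectodysplasin A2. It was the scarcest of the 10, with 4, 3 and 2 reads in cortex (0.54, 0.50 and 0.28 CPM). Control tumours had 22, 31 and 34 reads (2.33, 3.41 and 5.43 CPM), ETV5 tumours 24, 5 and 10 reads (3.15, 0.75 and 0.89 CPM) and NPY tumours 35, 12 and 29 reads (4.25, 1.46 and 2.77 CPM). Every tumour was above every cortex library, narrowly so in ETV5 replicates 2 and 3. The difference was 2.57 (SE 0.45, adjusted p = 0.000898) in control tumours and 2.17 (SE 0.48, adjusted p = 0.00489) in NPY tumours on the log2 scale. The gene passed the filter there through its reads in tumours, so that a difference was already needed, and it failed the filter and was not tested in ETV5 tumours against cortex.

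Phlda3 (chromosome 1, 135766119 to 135769136, plus strand) encodes a PH-domain protein that competes with Akt for membrane lipids. Cortex libraries were at 29.4, 33.2 and 34.2 CPM, control tumours at 41.2, 42.0 and 37.5, ETV5 tumours at 11.5, 9.56 and 60.3 and NPY tumours at 22.3, 32.5 and 27.0. ETV5 replicates 1 and 2 were the lowest of the 12 libraries and ETV5 replicate 3 was the highest. The ETV5 difference from cortex was -0.95 (SE 0.69, adjusted p = 0.266), and without ETV5 replicate 3 it was -1.81 with limma adjusted p = 0.0011. That library is also 1 of the 4 with a library code starting EC in place of DS. Its ribosomal precursor Rn45s, a mark of carried-over ribosomal RNA, was at 5503 CPM, against 1409 and 1079 in the other two ETV5 libraries. Rn45s was also high, at 4363, 5869 and 3943 CPM, in NPY replicates 2 and 3 and cortex replicate 2, where Phlda3 was at 32.5, 27.0 and 33.2 CPM. The part of either in the Phlda3 value was not tested. The difference was 0.15 (SE 0.14) in control tumours and -0.40 (SE 0.19, adjusted p = 0.097) in NPY tumours, where it passed without NPY replicate 2 (-0.53).

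Zmat3 (chromosome 3, 32334792 to 32366014, minus strand) encodes a zinc finger RNA-binding protein that affects mRNA splicing and stability. The cortex libraries stood at 113, 134 and 116 CPM, the control tumours at 37.8, 38.5 and 47.2, the ETV5 tumours at 25.3, 55.1 and 37.9 and the NPY tumours at 45.9, 46.1 and 26.2. The highest tumour library, at 55.1 CPM, was below the lowest cortex library, at 113 CPM. The fall was 3.31-fold in control tumours (log2 -1.73, SE 0.13, adjusted p = 7.49e-06), 3.64-fold in ETV5 tumours (-1.86, SE 0.29, adjusted p = 0.00164) and 3.48-fold in NPY tumours (-1.80, SE 0.25, adjusted p = 0.000447). It moved in the direction of the neuronal markers, and the part of the lost cortical tissue in it was not tested.

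Sesn2 (chromosome 4, 132492032 to 132510501, minus strand) encodes Sestrin2, a leucine-binding inhibitor of mTORC1 signalling. The cortex libraries stood at 9.94, 6.04 and 11.4 CPM, the control tumours at 13.8, 16.2 and 15.8, the ETV5 tumours at 11.8, 25.1 and 10.3 and the NPY tumours at 10.2, 28.4 and 11.9. Control tumours were above cortex without overlap, while replicate 2 of both the ETV5 and NPY groups stood far above its group. The differences of 0.61 (SE 0.25, adjusted p = 0.0553), 0.53 (SE 0.40) and 0.63 (SE 0.44) did not pass the limma test, and that of control tumours passed with TMM scaling (0.61), with scaling to the total (0.72) and without cortex replicate 3 (0.78).

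**Figure D2:**
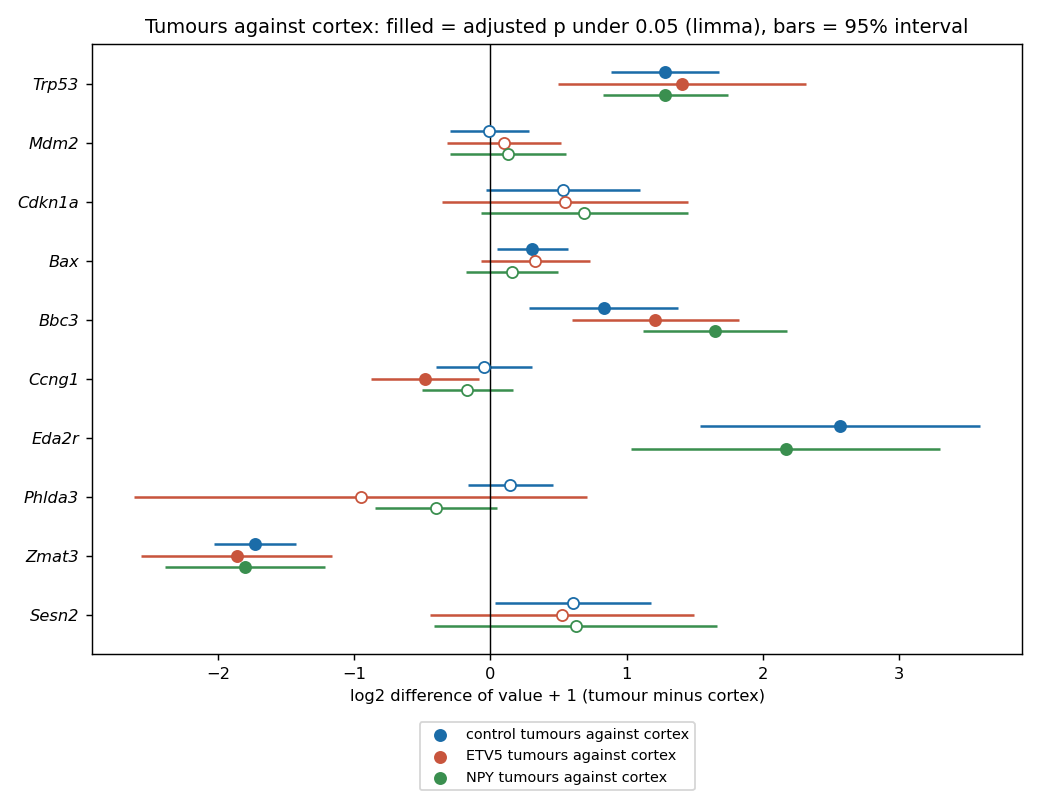
Log2 difference from cortex for the 10 genes in control, ETV5 and NPY tumours, on the size-factor scale with a pseudocount of 1. Points are limma estimates, bars are 95% intervals unadjusted for the number of genes, and filled points have an adjusted p under 0.05. Zmat3 lies near -1.8 in all 3 comparisons (-1.73, -1.86 and -1.80) and Mdm2 near 0.

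Per kilobase of annotated exon, which allows genes to be compared, Bax, Ccng1 and Phlda3 had the 3 highest group means of the 10 in every group and Eda2r the lowest. In ETV5 tumours the place of Phlda3 rested on replicate 3 (38.7 CPM per kb), with replicates 1 and 2 at 7.41 and 6.14, and its range overlapped those of Trp53 there and of Cdkn1a in NPY tumours. In cortex, Ccng1 (28.3 CPM per kb) and Bax (27.8) overlapped, and Phlda3 (20.7) lay below both. Zmat3 ranked 4 in cortex at 10.6 CPM per kb and 9 in each tumour group at 3.45 to 3.60. Trp53 ranked 7 in cortex at 3.93 CPM per kb, 5 in control tumours (10.7), 4 in ETV5 tumours (12.9) and 6 in NPY tumours (10.5). Its place in ETV5 tumours rested on replicate 2 (21.2 CPM per kb), with replicates 1 and 3 at 8.05 and 9.46. In the tumours, Trp53, Cdkn1a and Mdm2 were neighbours in this order, and their ranges overlapped in each group.

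Between tumour groups, none of the 10 genes was called by limma. In ETV5 against control tumours no gene of 14382 was called (0%), nor by edgeR or limma-voom, while DESeq2 called 76 genes and none of the 10, and 944 genes had an unadjusted limma p under 0.05. Ccng1 was the sole one of the 10 with an unadjusted p under 0.05, at -0.43 with a 95% interval of -0.83 to -0.028 (adjusted p = 0.732). Its groups did not overlap, which 13.7% of all genes showed. The intervals were wide for Phlda3 (-1.10, -2.75 to 0.56) and Eda2r (-1.36, -2.85 to 0.13), and narrower for Mdm2 (0.11, -0.35 to 0.57) and Bax (0.022, -0.38 to 0.42). Eda2r was below the filter in ETV5 tumours. It was tested here, and against NPY tumours, only because of its reads in the other group. Its difference thus stands as a description.

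In NPY against control tumours, 5.04% of 14425 genes were called by limma, 0.728% higher and 4.31% lower, and none was among the 10. Bbc3 came closest, with all 3 NPY libraries (18.0 to 22.0 CPM) above all 3 control libraries (10.2 to 12.5 CPM). The difference was 0.87 (SE 0.19, 95% interval 0.42 to 1.33), which is 1.83-fold, with adjusted p = 0.052 by limma and 0.064 by edgeR, and it was called by DESeq2 (adjusted p = 0.0045). Phlda3 was lower in the 3 NPY libraries than in the 3 controls, at -0.49 (-0.93 to -0.044, adjusted p = 0.181). Groups without overlap, as for these 2 of the 10 genes, occurred in 31.6% of all genes. All 3 control libraries have codes starting DS and all 3 NPY libraries codes starting EC, so this prefix, whose meaning the labels do not give, and the group cannot be told apart within these 6 libraries. In ETV5 against NPY tumours no gene of 14023 was called (0%), with 831 at an unadjusted p under 0.05, none of them among the 10, and DESeq2 called 56. Bbc3 differed by -0.46 (-0.99 to 0.082, adjusted p = 0.793), and its groups did not overlap, nor did those of Ccng1 (-0.33, -0.67 to 0.015), as for 12.7% of all genes. A difference that missed the threshold does not show that the groups are alike.

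**Figure D3:**
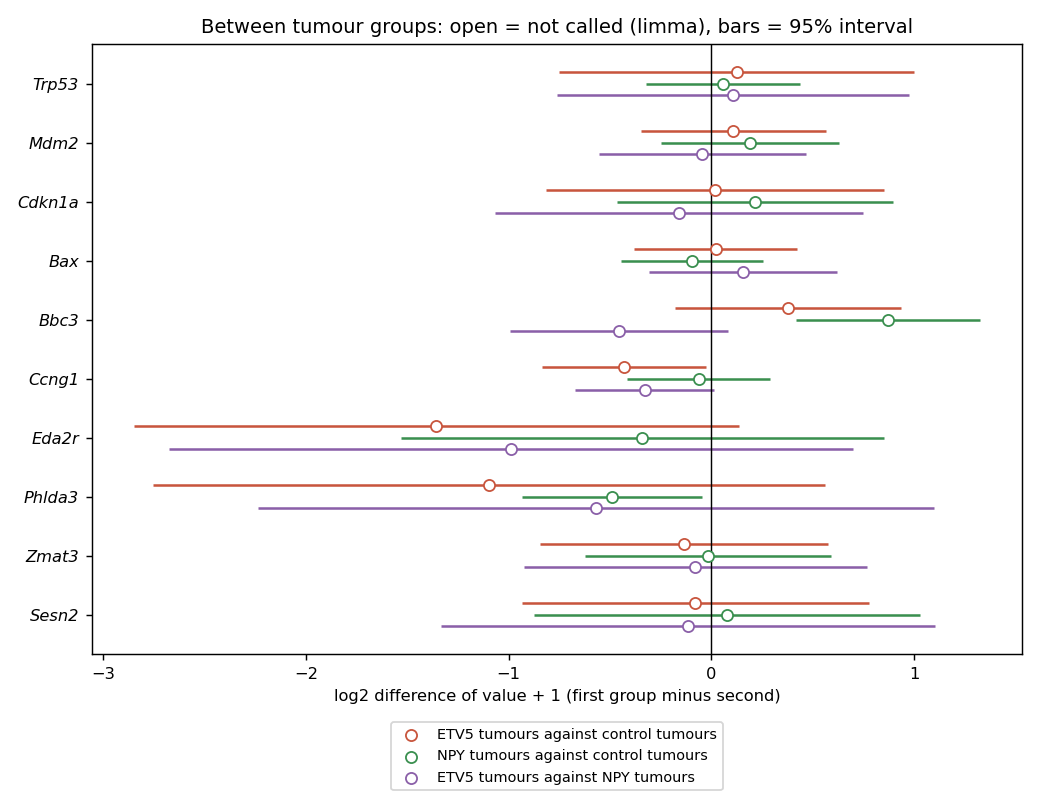
Log2 differences of the 10 genes between tumour groups (ETV5 minus control, NPY minus control, ETV5 minus NPY), with 95% intervals unadjusted for the number of genes. All points are open because no adjusted limma p was under 0.05. The interval of Bbc3 in NPY against control tumours, 0.42 to 1.33, lies above 0, and the intervals of Phlda3 and Eda2r in ETV5 tumours are the widest of that comparison.

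Over the 9 tumour libraries, the correlation of log2(CPM + 1) with Mdm2 was computed for each of the 9 other genes. Cdkn1a was the one that passed, with Pearson r = 0.86 (exact permutation p = 0.0030, adjusted 0.0266) and Spearman rho = 0.90 (exact permutation p = 0.0020, adjusted 0.0183). The share of all genes with an r at least this high was not computed. Among genes outside this list, Runx2, Usp15 and Larp4b had higher r with Mdm2, at 0.98, 0.98 and 0.97. Whether its r sets Cdkn1a apart from genes at large was thus not tested. Cdkn1a and Mdm2 were both highest in NPY replicate 2 (61.5 and 66.3 CPM) and both lowest in ETV5 replicate 1 (25.5 and 44.1 CPM). Without NPY replicate 2 and ETV5 replicate 3, the farthest from the median of Mdm2, r was 0.69 over 7 libraries (exact permutation, adjusted p = 0.155), so the relation rests in part on those libraries. Within the 5 tumours whose codes start DS r was 0.81 and within the 4 that start EC it was 0.87, too few libraries for a test. Trp53 had r = 0.56 with Mdm2 (adjusted p = 0.215, exact permutation) and Eda2r had r = -0.78 (adjusted p = 0.067). The sign was negative for 3 of the 9 genes (Bax, Ccng1 and Eda2r). Without the same 2 libraries Trp53 passed in place of Cdkn1a, with r = 0.95 (exact permutation, adjusted p = 0.0036), and Bax turned from -0.22 to 0.69. The choice of ETV5 replicate 3 was a near tie. Mdm2 was at 59.339 CPM there and at 59.332 CPM in ETV5 replicate 2, which was kept and had the highest Trp53 (85.9 CPM). Leaving out ETV5 replicate 2 in its place was not tested, so this change from Cdkn1a to Trp53 may rest on that library. With group means removed, r was -0.85 for Eda2r and 0.88 for Cdkn1a. The permutation of these values ran across groups and ignored the removed means, so no p-value is given for them. These libraries share a depth range and differ in cell makeup, as the marker sums show.

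**Figure D4:**
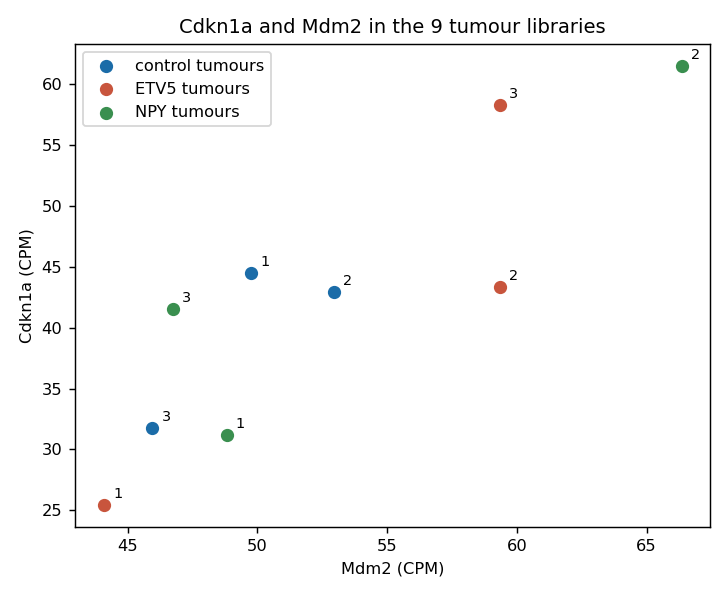
Cdkn1a against Mdm2 in the 9 tumour libraries, both in CPM, with colours for control, ETV5 and NPY tumours. The highest pair of values is NPY replicate 2 and the lowest is ETV5 replicate 1.

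The genes whose levels were most like those of 3 of the members over the 9 tumours were taken from 12395 genes as a description. For Trp53 they were Rrp12 (r = 0.98), Snhg4 (0.97) and Dnase2a (0.97), and these values fell to 0.91, 0.84 and 0.85 without ETV5 replicate 2, the library in which Trp53 was at 85.9 CPM. For Mdm2 they were Runx2 (0.98), Usp15 (0.98) and Larp4b (0.97). For Cdkn1a they were Mtf1 (0.97), Samsn1 (0.96) and Lgmn (0.96).

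Of 30 other p53 target genes, 13 were higher and 4 lower in control tumours than in cortex by limma, which is 56.7% of the list where 72.0% of all genes were called. For ETV5 tumours it was 12 higher and 4 lower of 29 tested (55.2%, beside 63.8%), and for NPY tumours 13 higher and 6 lower of 30 (63.3%, beside 70.9%). Of the genes called higher, 3, 2 and 3 in the control, ETV5 and NPY comparisons were below the filter in cortex. For these a difference was already needed, as for Perp, called lower and below the filter in ETV5 and NPY tumours. The list's median log2 difference was 0.15, 0.030 and -0.019, close to the medians over all genes. The death receptor gene Tnfrsf10b rose from 0.67, 0.50 and 0.56 CPM in cortex to 7.41, 9.03 and 8.14 CPM in control tumours (log2 3.41, SE 0.31), though with 5, 3 and 4 cortex reads it was tested only because of its reads in tumours. Fas, also a death receptor gene, rose by 2.79 (SE 0.28) in ETV5 tumours. Its levels were 1.53 to 2.01 CPM in cortex and 13.3 to 18.0 in ETV5 tumours. Control tumours, at 10.1 to 23.2 CPM, and NPY tumours, at 13.5 to 37.7, were also above cortex. Gdf15, a stress-induced cytokine gene, had 0 reads in all 3 cortex libraries and 11 to 32 reads in each tumour library. Against a floor of 3 reads over the cortex group, it was at least 18.3-fold higher in control tumours, at least 11.8-fold higher in ETV5 tumours and at least 17.8-fold higher in NPY tumours. In the opposite direction, Plk2, a kinase gene of the stress response that neurons also express, was at 206, 225 and 222 CPM in cortex and 43.2 to 68.5 CPM in the tumours, a log2 difference of -2.20 (SE 0.15) in control tumours. Rrm2b, the ribonucleotide reductase subunit for DNA repair, fell by 1.20 (SE 0.18) in the same comparison.

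Of 19 measured p53 regulators, 8 were higher and 5 lower in control tumours (68.4%, beside 72.0% of all genes). For ETV5 tumours it was 9 higher and 2 lower (57.9%, beside 63.8%), and for NPY tumours 9 higher and 3 lower (63.2%, beside 70.9%). None of these shares is above that over all genes. Cdkn2a, whose locus encodes both p16Ink4a and p19Arf, the latter an inhibitor of Mdm2, had 1, 1 and 5 reads in cortex (0.13, 0.17 and 0.70 CPM). The control tumours were at 91.1, 125 and 110 CPM, the ETV5 tumours at 229, 102 and 137 and the NPY tumours at 160, 96.4 and 162. The lowest tumour, at 91.1 CPM, was far above the highest cortex library, and gene counts do not separate the products. The log2 difference was 7.94 (SE 0.44), 8.38 (SE 0.53) and 8.29 (SE 0.47). As with Eda2r, the cortex libraries alone were below the filter, so that the gene was tested only because of its reads in tumours, and its levels stand as a description. The same holds for the checkpoint kinase gene Chek1 (3.32, SE 0.28, in ETV5 tumours), while Chek2 rose by 2.46 (SE 0.32) there. In control tumours Trp53bp1, encoding the damage response protein 53BP1, fell by 1.08 (SE 0.11). Mdm4, the Mdm2 paralogue that also restrains p53, fell by 0.32 (SE 0.11, adjusted p = 0.0245) there, a call that was lost with TMM scaling (-0.26), with scaling to the total (-0.14) and without any 1 of cortex replicates 1 and 3 and control replicate 1 (-0.30 to -0.28), and was not called in the ETV5 or NPY comparison.

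Among 20 genes of the BCL2 family and caspases, 19 were tested in each comparison with cortex, and 10 were higher and 4 lower in control tumours, 10 higher and 2 lower in ETV5 tumours, and 10 higher and 4 lower in NPY tumours. These are 73.7%, 63.2% and 73.7% of the list, near the 72.0%, 63.8% and 70.9% over all genes. Casp8, the initiator caspase of death receptors, was at 3.36, 2.68 and 2.78 CPM in cortex and 38.5 to 55.2 CPM in the tumours (log2 3.80, SE 0.18, in control tumours). Bak1, the partner effector of Bax, rose by 2.28 (SE 0.17), while Hrk, a BH3-only gene of neurons, fell by 4.12 (SE 0.23) from 66.5, 55.9 and 85.2 CPM to 3.71, 5.50 and 3.83 CPM. Hrk was also among the genes called lower in ETV5 and NPY tumours. It was below the filter in both groups and was tested only because of its reads in cortex, so a difference was already needed. Of the paralogues of the 10 genes, 3 were higher and 2 lower of 9 tested in control tumours (55.6%). For ETV5 tumours it was 1 and 1 of 10, and for NPY tumours 3 and 2 of 10, all below the shares over all genes. Cdkn1c, the p21 relative p57, varied between 4.34 and 845 CPM over the tumours, from below to far above the cortex libraries (7.04 to 9.88 CPM).

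All 16 cell-cycle genes that p53 represses through p21 and the DREAM complex were higher than cortex in each of the 3 comparisons, with medians of 4.48, 4.78 and 5.08 on the log2 scale, where 35.7%, 31.8% and 35.6% of all genes were called higher. Of the 16, 9 in the control and ETV5 comparisons and 7 in the NPY comparison were below the filter in cortex and were tested only because of their reads in tumours, so for these a difference was already needed. Their sum was 45.0 to 52.3 CPM in cortex and 728 to 1632 CPM in the tumours. Cdk1, the mitotic kinase gene, was at 2.28, 1.68 and 1.67 CPM in cortex, and at 124, 116 and 86.6 CPM in control tumours and 184, 211 and 170 CPM in NPY tumours. In NPY against control tumours its difference was 0.88 (SE 0.19, limma adjusted p = 0.049), the one call of these lists between tumour groups. Its adjusted p ranged from 0.0020 with DESeq2 to 0.955 with the cortex share as a covariate in limma. The call held with DESeq2, with TMM scaling and with a pseudocount of 5, and was lost under all other alternatives run, among them edgeR (adjusted p = 0.051), the cortex share (difference 0.32) or the library code prefix (0.94) as a covariate, and leaving out any 1 of the 6 libraries (0.71 to 0.99). Here, too, prefix and group cannot be told apart within the 6 libraries. In NPY against control tumours the median of the 16 was 0.69, with all 16 positive, beside 0.036 over all genes. All 16 were also positive in ETV5 against control tumours (median 0.26, beside -0.017 over all genes). In ETV5 against NPY tumours all 16 were negative (median -0.36, beside -0.014). The list thus had 1 sign in each comparison between tumour groups. The comparisons share libraries and genes of 1 list can vary together, so the 16 signs are not 16 separate observations. The summed level of the list overlapped between control (728 to 1036 CPM) and ETV5 tumours (1011 to 1165 CPM), and NPY tumours (1287 to 1632 CPM) lay above both.

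**Figure D5:**
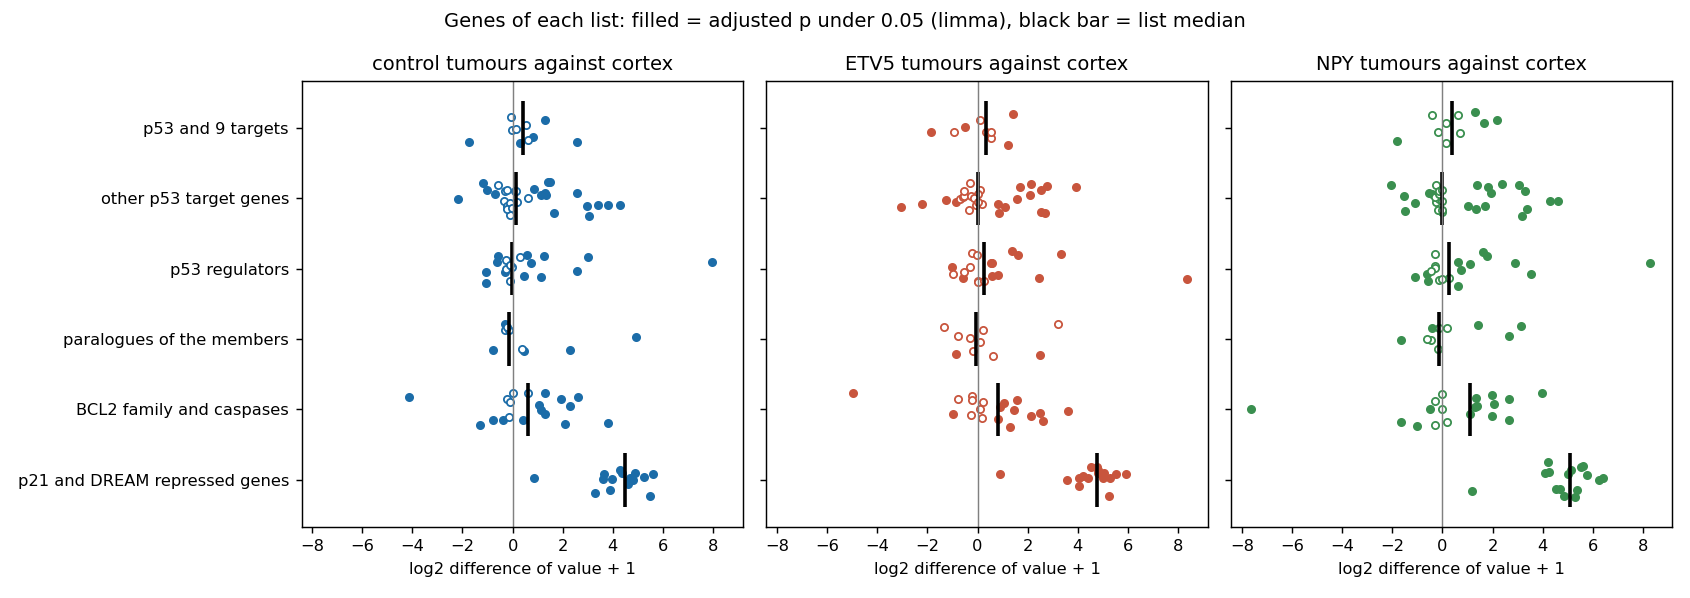
Log2 difference of every tested gene of the 6 gene lists, 1 panel each for control, ETV5 and NPY tumours against cortex, with a vertical tick at each list's median. Each point is 1 gene, filled where it was called. The cell-cycle genes repressed through p21 and DREAM lie to the right of 0 in all 3 panels, and the other lists spread to both sides.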

How the data were processed

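The authors deposited 2 tables of normalized signal values for 24421 genes, one for cortex, control and ETV5 libraries and the other for control and NPY libraries. STAR 2.5.0a, DESeq2 1.30.1 and the mm10 build are named, with quality control by FastQC 0.11.7 and MultiQC 1.6, per the submitters' processing notes. No source used here gives the counting tool or annotation. Per the labels, stranded mRNA libraries were made from 300 ng RNA. The deposited values behaved as counts divided by 1 size factor per library, and dividing by the smallest step gave whole reads for all values (tolerance 0.01 read). Control libraries held the same reads in both tables. Replicate numbers came from the sample titles.

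Limma 3.58.1 (R 4.3.3, trend and robust) was fitted to log2(value + 1) of the 6 libraries compared. Deposited values were used within a table. For NPY against cortex and ETV5 against NPY, recovered reads were scaled together by median of ratios. Genes needed about 10 reads in 3 libraries and 15 in total. Tests were two-sided with Benjamini-Hochberg adjustment over all genes tested, called under 0.05. Alternatives were edgeR 4.0.16, DESeq2 1.42.0, limma-voom, TMM and total scaling, pseudocounts 0.25 and 5, no filter, a replicate block, covariates (the cortex share of a tumour library, or its code prefix, fitted over all 9 tumour libraries so that ETV5 replicates 1 and 2 against 3 set the prefix effect) and each library left out. A read count of 0 was set to a floor of 3 reads for folds, covering counting error only. Correlations used SciPy 1.17.1. Positions are from GENCODE M21. The 10 genes and the gene lists were chosen with earlier results of these data known. Named genes outside the 10 were up to 3 called genes per direction of each list and comparison with the largest change, or the 2 most abundant where fewer than 2 were called, and the 3 most correlated genes (mean of at least 5 CPM) for Trp53, Mdm2 and Cdkn1a. Not each is printed. The fits were tested on simulated data.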

Additional observations from a re-analysis of the deposited data

How the results depend on the processing

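The count of the 10 genes called against cortex stayed within 4 to 6, 2 to 5 and 4 to 5 in control, ETV5 and NPY tumours when each library was left out in turn; the count of 2 was without cortex replicate 2. DESeq2 called 1 of the 10 genes in NPY against control tumours, 76 genes in all in ETV5 against control tumours, 1833 in NPY against control tumours and 56 in ETV5 against NPY tumours. In NPY against control tumours, where limma called 727 genes, the replicate block gave 264, the cortex share or the library code prefix as a covariate gave 0, and leaving out 1 library gave 1 to 571, the lowest without control replicate 2. In ETV5 against NPY tumours, no filter gave 1 gene, and leaving out 1 library gave 0 to 1. The cause was not tested. The replicate numbers were not taken as pairs, since deviations of same-numbered libraries correlated at -0.39 to 0.38; the replicate block called 4, 3 and 5 of the 10 genes against cortex, losing Bax in control tumours (adjusted p = 0.084) and Ccng1 in ETV5 tumours (0.066) and gaining Cdkn1a in NPY tumours (0.011). With group means removed, the correlations of Cdkn1a, Eda2r, Bbc3 and Ccng1 with Mdm2 were 0.88, -0.85, -0.46 and 0.097, for which no p-value is given. Without the 2 farthest libraries, Bax, Bbc3 and Phlda3 were at 0.69, -0.059 and -0.22.

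Differences whose sign turned were called in neither setting. With edgeR, the difference was 0.025 for Mdm2 in control tumours against cortex; 0.050 for Sesn2 in ETV5 tumours against control tumours. With DESeq2, the difference was 0.027 for Mdm2 in control tumours against cortex; 0.034 for Sesn2 in ETV5 tumours against control tumours; 0.010 for Zmat3 in NPY tumours against control tumours. With limma-voom, the difference was 0.028 for Mdm2 in control tumours against cortex. With TMM scaling, the difference was 0.044 for Mdm2 and 0.0051 for Ccng1 in control tumours against cortex. With scaling to the total, the difference was 0.16 for Mdm2 and 0.12 for Ccng1 in control tumours against cortex; -0.027 for Trp53 and -0.0012 for Sesn2 in NPY tumours against control tumours; 0.012 for Mdm2 in ETV5 tumours against NPY tumours. With the cortex share as a covariate, the difference was -0.031 for Cdkn1a, 0.29 for Zmat3 and 0.34 for Sesn2 in ETV5 tumours against control tumours; -0.16 for Trp53, -0.28 for Cdkn1a, 0.35 for Ccng1, 0.64 for Eda2r and 0.35 for Zmat3 in NPY tumours against control tumours; -0.44 for Trp53 in ETV5 tumours against NPY tumours. With the library code prefix as a covariate over the 9 tumours, where its effect rests on ETV5 replicate 3 against 1 and 2, the difference was -0.23 for Cdkn1a and 0.19 for Sesn2 in ETV5 tumours against control tumours; -0.059 for Mdm2, -0.63 for Cdkn1a, 0.14 for Bax and 0.37 for Eda2r in NPY tumours against control tumours; -0.19 for Trp53, 0.11 for Mdm2, 0.40 for Cdkn1a, -0.010 for Bax and 1.12 for Phlda3 in ETV5 tumours against NPY tumours. With 1 library left out, a sign turned for 19 differences. In control tumours against cortex, the range was -0.081 to 0.068 for Mdm2 and -0.15 to 0.082 for Ccng1. In NPY tumours against cortex, the range was -0.032 to 0.25 for Mdm2. In ETV5 tumours against control tumours, the range was -0.29 to 0.42 for Trp53, -0.28 to 0.36 for Cdkn1a, -0.12 to 0.099 for Bax, -0.40 to 0.16 for Zmat3 and -0.46 to 0.14 for Sesn2. In NPY tumours against control tumours, the range was -0.039 to 0.14 for Trp53, -0.051 to 0.45 for Cdkn1a, -0.16 to 0.051 for Ccng1, -0.68 to 0.040 for Eda2r, -0.16 to 0.26 for Zmat3 and -0.38 to 0.36 for Sesn2. In ETV5 tumours against NPY tumours, the range was -0.30 to 0.36 for Trp53, -0.15 to 0.12 for Mdm2, -0.43 to 0.15 for Cdkn1a, -0.36 to 0.19 for Zmat3 and -0.49 to 0.35 for Sesn2. Low reads limit Eda2r.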
